A study of Mus musculus with 20 samples.

Results

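Tg-SwDI mice carry human APP under the mouse Thy1 promoter, and the genes described here are the mouse precursor, its relatives, the enzymes that cut it and the gene that lends the transgene its promoter. They are App, Aplp1 and Aplp2 of the amyloid precursor family, the beta-secretase Bace1, the alpha-secretase Adam10, the gamma-secretase subunits Psen2 and Ncstn, and Thy1. These 8 genes were chosen by name from the 39056 genes of the count table, and all 8 were among the 16107 genes that passed the filter on low counts.

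The amyloid precursor protein is a membrane protein that is cut along competing routes. Beta-secretase followed by gamma-secretase releases amyloid beta, whereas alpha-secretase cuts inside the amyloid beta segment and prevents its release. Gamma-secretase is a complex of a presenilin (such as Psen2), nicastrin (Ncstn), an Aph1 protein and Pen-2 (Psenen). Thy1 is a surface glycoprotein abundant on neurons, and its regulatory sequence is widely used to drive transgenes in the brain.

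RNA was sequenced from the left hippocampus of 20 female C57BL/6 mice aged 12 to 13 months, 1 library per mouse and 5 mice per group. WT Non-Tg mice had miR-34a and no transgene (replicates 2, 3, 4, 6 and 7). KO Non-Tg mice carried a constitutive, whole-body deletion of miR-34a (replicates 1, 2, 4, 7 and 8). WT Tg-SwDI mice carried human APP with the Swedish, Dutch and Iowa mutations under the mouse Thy1 promoter (replicates 3, 4, 5, 6 and 7), and KO Tg-SwDI mice carried both the deletion and the transgene (replicates 1, 2, 3, 5 and 8). Values per mouse are given below in that order. Total counts per library lay between 19549622 and 21066868. Levels are CPM, counts scaled to a common library total after TMM adjustment, and log2 fold changes and adjusted p-values are from edgeR's quasi-likelihood test over all 16107 genes with Benjamini-Hochberg adjustment. Unless another scale is named, a value given with an adjusted p is a log2 fold change. A gene was called at an adjusted p of at most 0.05. The reads were counted on mouse genes, and 1 value per gene was available for App and for Thy1. Reads of the mouse gene and any human or cassette reads assigned to it therefore cannot be told apart. miR-34a itself was not analysed here.

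KO Tg-SwDI replicate 8 stood apart from the other libraries. Mitochondrial genes took 14.6% of its counts, against 6.94% to 8.76% in the other 19 mice, and its TMM factor was 0.901 against 0.981 to 1.03. Results that leaving out this mouse moved are given with and without it for several genes below. Hippocampal field markers were detected throughout: all 9 passed the filter, and their summed levels averaged 1080.03, 1144, 1115 and 1090.2 CPM in WT Non-Tg, KO Non-Tg, WT Tg-SwDI and KO Tg-SwDI mice, with Zbtb20 the most abundant. Choroid plexus markers, in contrast, varied widely between mice. Their summed level had a median of 1868 CPM in WT Non-Tg (59.2 to 4239.8), 125 CPM in KO Non-Tg (60.7 to 337), 3360.4 CPM in WT Tg-SwDI (113 to 3709) and 3180.3 CPM in KO Tg-SwDI mice (122 to 3825), mostly Ttr. The KO Non-Tg group thus held little choroid plexus RNA, and calls that ended with these markers as a covariate are named below.

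The stretch of App that the transgene's mutations concern is shown first, as mouse reference sequence (GENCODE M21, GRCm38/mm10). It is the 42-codon amyloid beta segment, codons 672 to 713 of the longest App transcript, with the 2 codons before it. It lies in exons 16 and 17 of 18, at chr16:84965670-84965726 and chr16:84962794-84962868 on the minus strand, and was the same in all 5 protein-coding transcripts that contain it. Capitals mark the codon pair changed by the Swedish mutation, at the beta-secretase cut, and codons 22 and 23 of the segment, changed by the Dutch and Iowa mutations.
App amyloid beta segment, mouse: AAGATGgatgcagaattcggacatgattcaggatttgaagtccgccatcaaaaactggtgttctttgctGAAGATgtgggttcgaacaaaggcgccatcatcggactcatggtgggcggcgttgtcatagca

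The deleted microRNA is shown with its seed, bases 2 to 8, in capitals (RefSeq, GRCm38.p6, chr4:150068473-150068494, plus strand). The seed pairs with CACTGCC, or with ACTGCCA where an A lies opposite the first base. The longest annotated 3′UTR of each of the 8 genes was searched for both motifs on the transcribed strand. Bace1 and Adam10 held 1 ACTGCCA each, in capitals below, and neither motif was found in that 3′UTR of the other 6. Shorter forms were not searched.
mmu-miR-34a-5p: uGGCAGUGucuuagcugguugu
Bace1 3′UTR, exon 9 of 9, match at chr9:45862069-45862075, plus strand: acccacagACTGCCAggaagatggagactg
Adam10 3′UTR, exon 16 of 16, match at chr9:70778470-70778476, plus strand: ttttttcaACTGCCAatcaaggctgggagg
Of 21007 protein-coding genes with an annotated 3′UTR, 4153 (19.8%) held at least 1 of these motifs in the longest one, so a match is common. A match describes the sequence and does not show a working site. The median 3′UTR length over those genes was 961 bases, against 4104 for Bace1 and 2135 for Adam10.

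In Non-Tg mice Aplp1 was the most abundant of the 8 genes per kb of exonic length. That length was the union of all annotated exons, 12996 bases for App and 3017 for Aplp1, and can exceed a single transcript. By CPM, App was the highest of the 8 in WT Non-Tg mice, at 1643 to 1724 against 1273 to 1377 for Aplp1. Per kb of exonic length, Aplp1 was at 441 ± 15.7 CPM in WT Non-Tg mice (SD, n = 5). Thy1 followed at 242 ± 10.03, App at 130.4 ± 2.57 and Aplp2 at 98.4 ± 2.63 CPM per kb. The secretase genes were lower, with Bace1 at 19.9 ± 1.11, Adam10 at 18.9 ± 0.471, Ncstn at 15.9 ± 0.571 and Psen2 at 3.56 ± 0.115 CPM per kb. Of neighbours in this order, only the Bace1 and Adam10 values overlapped in range. In Tg-SwDI mice Thy1 took the first place, with 727 ± 54.5 CPM per kb in WT and 942 ± 105 in KO mice.

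**Figure D1:**
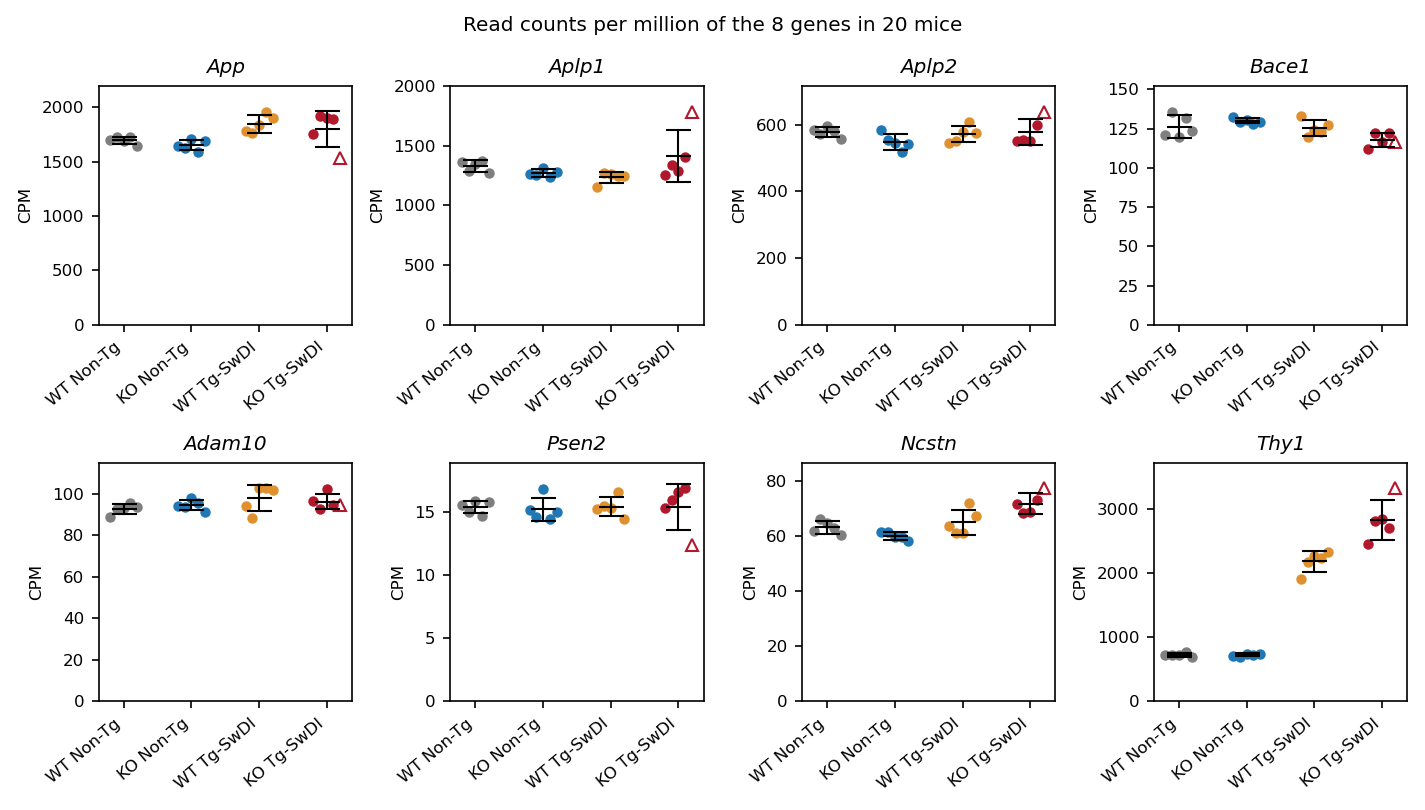
Level of each of the 8 genes in each mouse (vertical axis, CPM on TMM-scaled library sizes; every panel has its own scale) by group (horizontal axis), with the group mean ± SD (n = 5) and KO Tg-SwDI replicate 8 as an open triangle. Thy1 lay between 685 and 769 CPM in the WT Non-Tg group, and KO Tg-SwDI mice ran from 2454 to 3318 CPM, while App stayed between 1529.9 and 1958 CPM over all 20 mice.

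Thy1 was the member with the largest change. It rose 3.01-fold with the transgene in WT mice and 3.91-fold in KO mice, and among Tg-SwDI mice KO exceeded WT 1.30-fold. Thy1 (ENSMUSG00000032011) lies at chr9:44043384-44048579 on the plus strand. Its level was 719.9, 726, 725, 769 and 685 CPM in WT Non-Tg and 709.6, 689, 744, 726 and 743 CPM in KO Non-Tg mice. It was 1905, 2170.3, 2259.8, 2228 and 2328 CPM in the WT Tg-SwDI mice and 2454, 2802, 2835, 2697 and 3318 CPM in the KO Tg-SwDI mice, the last value being replicate 8. Every Tg-SwDI mouse was above every Non-Tg mouse, and every KO Tg-SwDI mouse was above every WT Tg-SwDI mouse. The labels of transgene carriers and non-carriers were thus matched by Thy1 in 20 of 20 mice.

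The log2 fold change of Thy1 was 1.59 in WT mice (SE 0.066, 95% interval 1.45 to 1.72, adjusted p = 3.31e-15) and 1.97 in KO mice (SE 0.066, 1.83 to 2.10, adjusted p = 2.43e-17). Of all genes tested, 4.41% were called between Tg-SwDI and Non-Tg mice in WT and 20.8% in KO. The groups of 5.1% of genes lay fully higher with the transgene in WT mice, and those of 8.47% in KO mice. Among Non-Tg mice, Thy1 was not called between KO and WT (log2 fold change -0.0050, 95% interval -0.14 to 0.13, adjusted p = 0.993), a comparison in which 0 genes (0%) were called, 1302 had an unadjusted p under 0.05, and DESeq2 called 7 and edgeR's exact test 4.

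Between KO and WT Tg-SwDI mice, where 1.99% of genes were called and 2.04% lay fully higher in KO, the log2 fold change of Thy1 was 0.37 (SE 0.064, 95% interval 0.24 to 0.51, adjusted p = 0.00416). Without KO Tg-SwDI replicate 8, the highest of all mice, it was 0.31 (adjusted p = 0.00321). The call was lost when only the 10 Tg-SwDI mice were fitted (0.38, adjusted p = 0.0695) and with the replicate block (0.39, adjusted p = 0.0781). The interaction of KO and Tg-SwDI, for which 0.608% of genes were called, was 0.38 (SE 0.091, 95% interval 0.19 to 0.56) and missed the threshold at adjusted p = 0.0504. Without replicate 8 its adjusted p was 0.0364, and it also passed the threshold without WT Non-Tg replicate 7 (0.0482) or KO Tg-SwDI replicate 1 (0.0235), 2 (0.0295) or 5 (0.0458). A larger transgene effect on Thy1 in KO than in WT mice was therefore at the threshold, on either side of it by which mice were fitted.

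The excess of Thy1 over Non-Tg mice can be set beside that of App, the mouse counterpart of the transgene's product. Mean Thy1 exceeded its Non-Tg level by 1453 CPM in WT and 2099 CPM in KO mice, a KO to WT ratio of 1.44. Mean App exceeded its Non-Tg level by 151 CPM in WT and 147 CPM in KO mice, a ratio of 0.970. Both KO values moved without KO Tg-SwDI replicate 8. The excess of App was then 214 CPM (ratio 1.41) and that of Thy1 1975 CPM (ratio 1.36). With all mice and per kb of exonic length, the excess of Thy1 was 485 and 701 CPM, and that of App 11.6 and 11.3 CPM. These values rest on exonic lengths of 2995 bases for Thy1 and 12996 for App. How much of either excess came from transcribed transgene sequence was not tested.

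**Figure D2:**
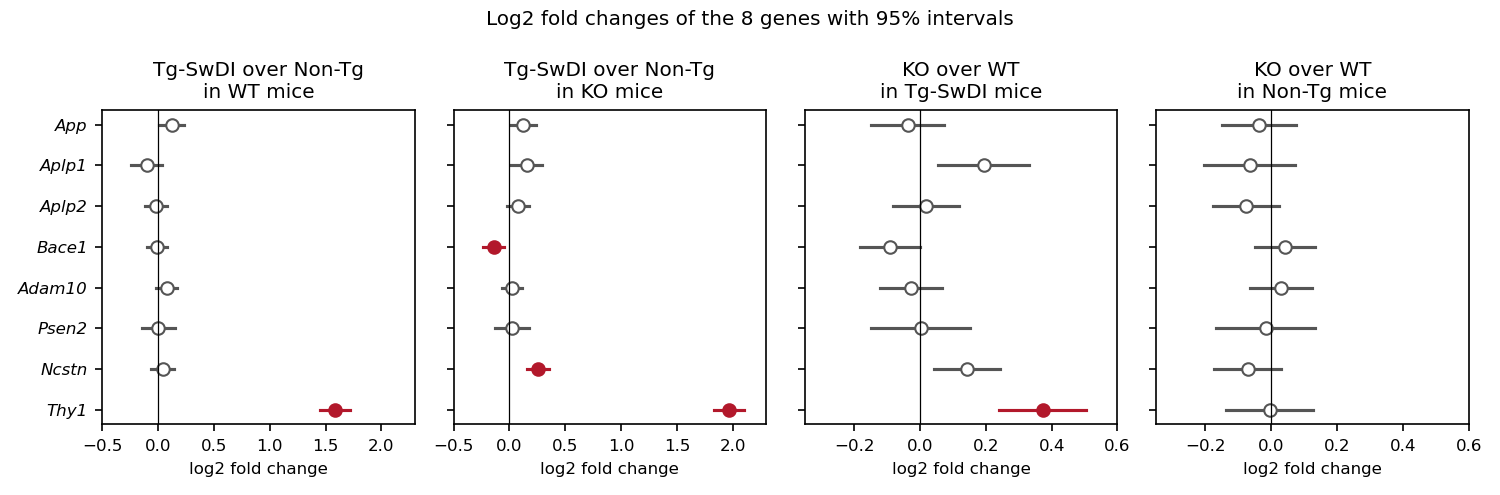
Log2 fold change (horizontal axis) with its 95% interval for the 8 genes in the 4 comparisons between groups, one panel each; filled red points were called at an adjusted p of at most 0.05, and the panels of the transgene have a wider axis than those of the KO. Thy1 reached 1.59 and 1.97 with the transgene, Ncstn 0.26 and Bace1 -0.14 were called with the transgene in KO mice, and in KO against WT Tg-SwDI mice Thy1 at 0.37 was the only call.

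Of 8 genes that lie near Thy1 on chromosome 9, taken as a check on the locus, 7 passed the filter and C1qtnf5 had 0 counts in all 20 mice. In WT mice 0 of the 7 were called (median log2 fold change -0.024, range -0.17 to 0.21). In KO mice 1 was called higher and 1 lower (median -0.084), a share near the 20.8% of all genes called there, against 4.41% in WT mice. The gene called lower was Cbl, a ubiquitin ligase (-0.15, adjusted p = 0.0429). The gene called higher was Mfrp, a membrane protein with frizzled-like domains (4.41, adjusted p = 0.0208), whose groups overlapped. Mfrp moved with the choroid plexus markers. With the mean log2 CPM of these markers per mouse as a covariate, the log2 fold change of Mfrp was 0.23 (adjusted p = 0.660). KO against WT gave 0 calls among the 7 in Tg-SwDI mice (1.99% of all genes) and in Non-Tg mice (0% of all genes).

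No neuronal marker was called higher with the transgene. In WT mice 0 of 9 were called between Tg-SwDI and Non-Tg (all genes 4.41%). In KO mice, where 20.8% of all genes were called and 8.31% called lower, 2 of 9 were called, each lower. These were the presynaptic calcium sensor Syt1 (-0.26, adjusted p = 0.00128) and Gad1, a GABA-synthesising enzyme (-0.14, adjusted p = 0.0408). Their summed level averaged 8078 CPM in WT Non-Tg (7753 to 8483), 8224 in KO Non-Tg (7850.4 to 8397), 7647 in WT Tg-SwDI (7352 to 8037) and 7748 in KO Tg-SwDI mice (7311 to 8723), with Syt1 the most abundant. The highest sum was that of KO Tg-SwDI replicate 8. T cells also carry Thy1, and their markers were near 0: 2 of 7 passed the filter, all 7 summed to 1.98 to 4.29 CPM, and Cd3d was at 0 in 7 mice. The T cell receptor gene Trac was called higher with the transgene in KO mice (0.82, adjusted p = 0.0245).

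App, the mouse amyloid precursor gene, averaged 1695 CPM in WT Non-Tg and 1846 CPM in WT Tg-SwDI mice. With all mice, the effect of the transgene on App was called when WT and KO mice were averaged and not in either genotype by itself. App (ENSMUSG00000022892) lies at chr16:84949685-85173766 on the minus strand. Its level was 1695, 1724, 1689.8, 1724 and 1643 CPM in WT Non-Tg and 1644, 1629, 1708, 1592 and 1689.5 CPM in KO Non-Tg mice. It was 1778, 1765, 1836, 1958 and 1895 CPM in WT Tg-SwDI and 1754, 1918, 1898, 1894 and 1529.9 CPM in KO Tg-SwDI mice. Every WT Tg-SwDI mouse lay above every WT Non-Tg mouse, a separation that 5.1% of all genes showed. In KO mice the groups overlapped through replicate 8, which had the lowest App of all 20 mice. The KO Tg-SwDI mean was 1799 ± 164 CPM (SD, n = 5), and 1866 ± 75.8 CPM (n = 4) without that mouse.

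The log2 fold change of App with the transgene was 0.12 in WT mice (95% interval 0.012 to 0.23, adjusted p = 0.261) and 0.12 in KO mice (0.011 to 0.23, adjusted p = 0.110). The KO value was called without replicate 8 (0.18, adjusted p = 0.00475) and with the trend on GC content and length removed (0.17, adjusted p = 0.0292). Averaged over WT and KO, where 17.2% of genes were called, App was called at 0.12 (SE 0.038, adjusted p = 0.0268). That call was lost when all genes were kept without a filter (adjusted p = 0.0602), with library size alone (0.0857), with the replicate block (0.126) and without WT Tg-SwDI replicate 6 (adjusted p = 0.0564), KO Non-Tg replicate 7 (0.0547) or KO Tg-SwDI replicate 3 (0.0507). The interaction was -0.00057 (95% interval -0.16 to 0.16, adjusted p = 0.997), and 0.057 without replicate 8 (adjusted p = 0.671). Averaged over Non-Tg and Tg-SwDI, where 0.0807% of genes were called between KO and WT, 0 of the 8 members were called. App was there at -0.037 (adjusted p = 0.803), or -0.012 without replicate 8 (adjusted p = 0.938). KO against WT gave -0.038 in Tg-SwDI mice (95% interval -0.15 to 0.074, adjusted p = 0.752), or 0.016 without replicate 8 (adjusted p = 0.901), and -0.037 in Non-Tg mice (-0.15 to 0.074, adjusted p = 0.935).

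Aplp1, a neuron-enriched relative of App (ENSMUSG00000006651, chr7:30434982-30445535, minus strand), was not called in any comparison with all mice. Its level was 1368, 1289, 1346, 1377 and 1273 CPM in WT Non-Tg and 1261, 1257, 1318, 1239.7 and 1284 CPM in KO Non-Tg mice. It was 1157, 1269.9, 1267, 1248 and 1247 CPM in WT Tg-SwDI and 1259, 1339.6, 1285, 1406 and 1787 CPM in KO Tg-SwDI mice. Every WT Tg-SwDI mouse was below every WT Non-Tg mouse, yet the log2 fold change was -0.10 (adjusted p = 0.511), and 1.58% of all genes lay fully lower. In KO mice it was 0.15 (adjusted p = 0.106), or 0.059 (adjusted p = 0.403) without replicate 8, whose 1787 CPM was the highest of all mice. Leaving out KO Tg-SwDI replicate 1 instead made it a call (0.20, adjusted p = 0.0457). KO against WT gave 0.19 in Tg-SwDI mice (adjusted p = 0.119), or 0.096 without replicate 8 (adjusted p = 0.291), and -0.065 in Non-Tg mice (adjusted p = 0.879).

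Aplp2, the broadly expressed relative (ENSMUSG00000031996, chr9:31149557-31211815, minus strand), had 584, 573, 597, 582 and 555 CPM in WT Non-Tg and 584, 552, 546, 518 and 541 CPM in KO Non-Tg mice. In Tg-SwDI mice it had 545, 552, 578, 606 and 574 CPM in WT and 549.7, 554, 550.2, 598 and 639 CPM in KO. All 4 groups overlapped. In the 4 comparisons between groups its log2 fold changes ran from -0.077 (KO against WT in Non-Tg mice, adjusted p = 0.731) to 0.077 (transgene in KO mice, adjusted p = 0.279), and none was called. Without KO Tg-SwDI replicate 8, its highest mouse, the latter was 0.041 (adjusted p = 0.573).

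Bace1, the main beta-secretase of neurons (ENSMUSG00000032086, chr9:45838580-45864399, plus strand), was lower with the transgene in KO mice. Its level was 121, 136, 119.9, 132 and 123 CPM in WT Non-Tg and 132, 129, 130.3, 128 and 129 CPM in KO Non-Tg mice. It was 133, 119.7, 124, 122 and 127 CPM in WT Tg-SwDI and 112, 122, 117, 122 and 116 CPM in KO Tg-SwDI mice. All 5 KO Tg-SwDI mice were below all 5 KO Non-Tg mice, whose own spread was only 1.62 CPM (SD). In KO mice 4.29% of all genes lay fully lower with the transgene. The log2 fold change was -0.14 (SE 0.044, 95% interval -0.23 to -0.050, adjusted p = 0.0251) in KO and -0.011 (-0.10 to 0.080, adjusted p = 0.945) in WT mice. The interaction, -0.13 (adjusted p = 0.279), was not called, and a difference between the WT and KO effects was thus not shown.

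The call on Bace1 was not firm. It was lost without KO Non-Tg replicate 1 (adjusted p = 0.0581) or KO Tg-SwDI replicate 1 (0.0664), and with the choroid plexus markers as a covariate (-0.086, adjusted p = 0.355). Between KO and WT the log2 fold change was -0.090 in Tg-SwDI (adjusted p = 0.270) and 0.041 in Non-Tg mice (-0.050 to 0.13, adjusted p = 0.890). Bace1 and Adam10, the pair of members with an ACTGCCA in the 3′UTR, were thus not called between KO and WT. Bace2, its relative, was not called in any comparison, with 0.15, adjusted p = 0.691 for the transgene in WT and -0.049, adjusted p = 0.836 in KO mice. Rnf214 overlaps Bace1 on the opposite strand with 810 to 1003 counts per library, and the strand setting of the counting is not given in the sources used here.

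Adam10, the main alpha-secretase of neurons (ENSMUSG00000054693, chr9:70678997-70780229, plus strand), was not called in any comparison. Its level was 89.1, 92.7, 93.1, 95.5 and 93.5 CPM in WT Non-Tg and 94.3, 93.8, 97.9, 95.9 and 91.3 CPM in KO Non-Tg mice. It was 94.0, 88.5, 103, 103 and 102 CPM in WT Tg-SwDI and 96.5, 92.9, 102, 94.7 and 94.7 CPM in KO Tg-SwDI mice. The groups overlapped throughout. The transgene gave 0.079, adjusted p = 0.443 in WT and 0.023, adjusted p = 0.762 in KO mice. KO against WT gave 0.029 in Non-Tg (95% interval -0.065 to 0.12, adjusted p = 0.942) and -0.027 in Tg-SwDI mice (-0.12 to 0.067, adjusted p = 0.797).

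Adam17, a sheddase that can also act as alpha-secretase, did rise with the transgene. Its mean level went from 15.9 ± 1.89 to 21.97 ± 1.68 CPM (SD, n = 5) in WT mice (0.46, adjusted p = 0.000851). In KO mice it went from 15.4 to 21.4 CPM (0.48, adjusted p = 0.000294). Of the 3 alpha-secretases, it was the 1 called in each genotype, where 4.41% (WT) and 20.8% (KO) of all genes were called. Adam9 was at 0.16, adjusted p = 0.0600 in WT and 0.11, adjusted p = 0.110 in KO mice. Averaged over WT and KO, where 17.2% of all genes were called, 2 of the 3 were called higher, Adam17 and Adam9 (list median 0.13).

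Of 10 genes in a list of tetraspanins, tissue inhibitors of metalloproteinases and proprotein convertases, 0 were called in WT mice (median log2 fold change 0.049) and 4 were called higher with the transgene in KO mice (median 0.16). Of all genes, 4.41% were called in WT mice, and 20.8% were called and 12.5% called higher in KO mice. These were Tspan14, a tetraspanin that carries Adam10 to the surface (0.41, adjusted p = 3.28e-06), the metalloproteinase inhibitors Timp1 (1.08, adjusted p = 0.00715) and Timp2 (0.23, adjusted p = 0.00898), and Furin, a proprotein convertase (0.16, adjusted p = 0.0245). Among Tg-SwDI mice, Tspan14 was also called higher in KO, at 43.5 ± 1.77 against 37.3 ± 1.124 CPM (0.22, adjusted p = 0.0346).

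Ncstn, the substrate-binding subunit nicastrin (ENSMUSG00000003458, chr1:172066013-172082795, minus strand), rose with the transgene in KO mice. Its level was 61.7, 65.96, 64.6, 62.7 and 60.3 CPM in WT Non-Tg and 61.5, 61.2, 59.6, 59.7 and 58.0 CPM in KO Non-Tg mice. It was 63.6, 61.2, 60.9, 71.7 and 67.2 CPM in WT Tg-SwDI and 71.7, 68.1, 68.5, 72.8 and 77.3 CPM in KO Tg-SwDI mice. All 5 KO Tg-SwDI mice were above all 5 KO Non-Tg mice, whereas the WT groups overlapped. Of all genes, 8.47% lay fully higher with the transgene in KO mice. The log2 fold change was 0.26 in KO (SE 0.050, 95% interval 0.15 to 0.36, adjusted p = 0.000492) and 0.042 in WT mice (-0.060 to 0.14, adjusted p = 0.769). Without replicate 8 the KO value was 0.23 (adjusted p = 0.000856), and with the trend on GC content and length removed it was 0.15 (adjusted p = 0.0323).

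The interaction for Ncstn, 0.21 (adjusted p = 0.127), was not called, nor was KO against WT in Tg-SwDI (0.14, adjusted p = 0.119) or Non-Tg mice (-0.071, adjusted p = 0.771). The difference between the transgene's effect in KO and in WT was thus not established. Averaged over WT and KO, Ncstn was called at 0.15, adjusted p = 0.00342, which the GC content and length correction took to 0.076 (adjusted p = 0.118). Copa overlaps Ncstn on the opposite strand with 4682 to 5541 counts per library.

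Psen2, one of the catalytic presenilins (ENSMUSG00000010609, chr1:180227004-180263438, minus strand), was not called in any comparison. Its level was 15.6, 15.03, 15.9, 14.7 and 15.8 CPM in WT Non-Tg and 15.2, 14.7, 16.8, 14.5 and 14.996 CPM in KO Non-Tg mice. It was 15.3, 15.5, 15.3, 16.6 and 14.5 CPM in WT Tg-SwDI and 15.3, 16.0, 16.6, 16.9 and 12.4 CPM in KO Tg-SwDI mice, where replicate 8 was the lowest of all. The log2 fold changes lay between -0.017 (95% interval -0.17 to 0.13, adjusted p = 0.981), KO against WT in Non-Tg mice, and 0.021 (-0.13 to 0.17, adjusted p = 0.874), the transgene in KO mice. Without replicate 8 the last was 0.091 (adjusted p = 0.343). The groups overlapped in every comparison.

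Over the whole gamma-secretase list of 7 subunits, 0 were called in WT mice (median 0.0018), against 3 higher and 1 lower with the transgene in KO mice (median 0.17, against -0.0048 over all genes, of which 20.8% were called). Besides Ncstn, the small subunit gene Psenen (0.30, adjusted p = 0.00132) and Aph1c (0.29, adjusted p = 0.0438) rose in KO mice, while Aph1b fell (-0.18, adjusted p = 0.0411). Aph1b and Aph1c are near-identical paralogs, and reads could have been split between them. Among Tg-SwDI mice, Psenen was also called higher in KO, at 29.3 ± 2.29 against 24.6 ± 0.960 CPM (SD, n = 5; 0.26, adjusted p = 0.0409), with every KO mouse above every WT mouse, as for 2.04% of all genes. Its interaction, a test that called 0.608% of all genes, was called at 0.39 (SE 0.092, adjusted p = 0.0455), and under 10 of the 29 alternative settings run for it. It was lost without any of 15 mice (adjusted p up to 0.0987), and with the choroid plexus covariate (0.34, adjusted p = 0.133), library size alone (0.0764), the replicate block (0.0501) or the trend on GC content and length removed (0.265).

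With the transgene in WT mice, Aplp2 was at -0.019, adjusted p = 0.916 and Psen2 at 0.0018, adjusted p = 0.995. Between KO and WT Tg-SwDI mice, Aplp2 was at 0.018 (adjusted p = 0.877; -0.019 without replicate 8) and Psen2 at 0.0017 (adjusted p = 0.993; 0.071 without replicate 8). The interaction was 0.26 for Aplp1 (adjusted p = 0.165), 0.096 for Aplp2 (0.482), -0.056 for Adam10 (0.689) and 0.019 for Psen2 (0.944). Without replicate 8 it was 0.16 for Aplp1, 0.062 for Aplp2 and 0.091 for Psen2. None of these was called.

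Averaged over WT and KO, the transgene gave 1.78 for Thy1, which was called (adjusted p = 5.02e-20). It gave 0.025 for Aplp1 (0.772), 0.029 for Aplp2 (0.618), 0.051 for Adam10 (0.301) and 0.011 for Psen2 (0.914). Without replicate 8 the values were -0.024 for Aplp1, 0.010 for Aplp2 and 0.046 for Psen2. Bace1 was at -0.076, adjusted p = 0.0976, and it was called with DESeq2 (-0.079, adjusted p = 0.0368) and with the trend on GC content and length removed (-0.12, adjusted p = 0.00623). Averaged over Non-Tg and Tg-SwDI, KO against WT gave 0.18 for Thy1 (adjusted p = 0.160), which DESeq2 called (0.0217). For the others it lay between -0.037 (App) and 0.064 (Aplp1, adjusted p = 0.709), with Aplp2 at -0.030, adjusted p = 0.834, Bace1 at -0.024, adjusted p = 0.853, Adam10 at 0.00092, adjusted p = 0.995, Psen2 at -0.0078, adjusted p = 0.976 and Ncstn at 0.036, adjusted p = 0.792.

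**Figure D3:**
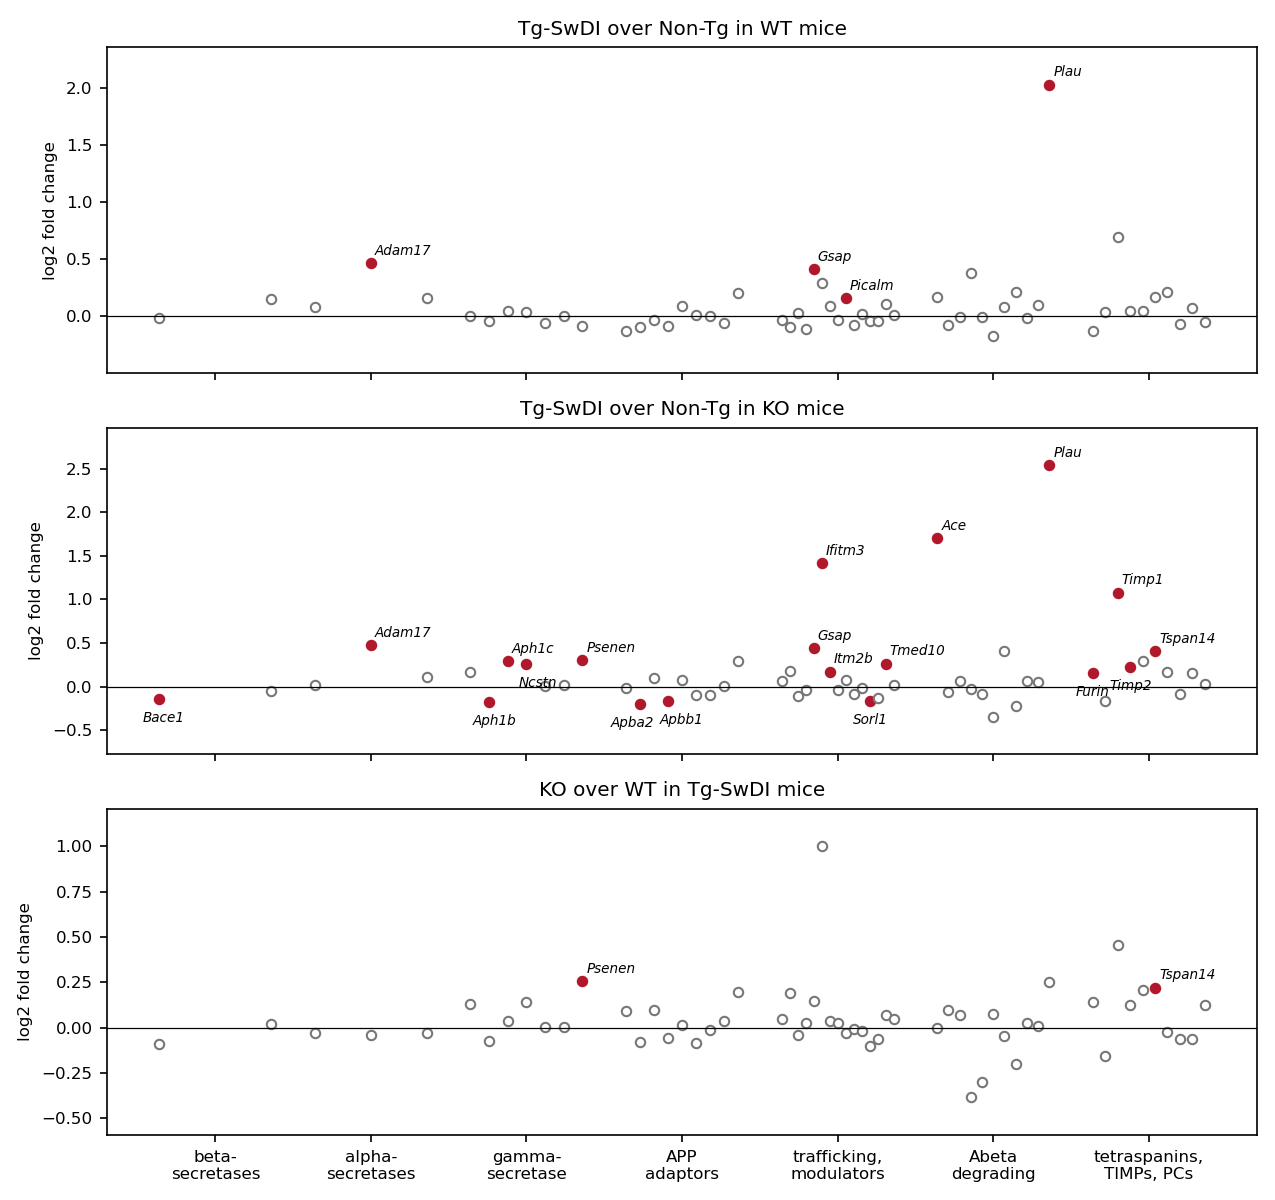
Log2 fold change (vertical axis) of each tested gene of the pathway lists (horizontal axis, genes grouped by list; TIMPs are tissue inhibitors of metalloproteinases and PCs proprotein convertases) for the transgene in WT mice, the transgene in KO mice and KO against WT among Tg-SwDI mice, with genes called at an adjusted p of at most 0.05 filled red and named. Plau at 2.02 and 2.54 and Adam17 at 0.46 and 0.48 were called with the transgene in both genotypes, and Psenen at 0.26 and Tspan14 at 0.22 between KO and WT Tg-SwDI mice.

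Among 15 genes of App and secretase trafficking, 2 were called higher with the transgene in WT mice and 4 higher and 1 lower in KO mice, against 4.41% and 20.8% of all genes. Gsap, a gamma-secretase activating protein, rose in both (0.41, adjusted p = 0.0217 in WT and 0.44, adjusted p = 0.00384 in KO). The endocytic adaptor Picalm was called in WT (0.16, adjusted p = 0.0260). In KO mice Itm2b, an inhibitor of App processing, rose (0.17, adjusted p = 0.00381), as did Tmed10, a cargo receptor that restrains gamma-secretase (0.26, adjusted p = 0.000329). Ifitm3, an interferon-induced modulator of gamma-secretase, went from 9.85 to 26.3 CPM in KO mice (1.42, adjusted p = 0.000788) and just missed the threshold for KO against WT in Tg-SwDI mice (1.002, adjusted p = 0.0507). The sorting receptor Sorl1 fell in KO mice (-0.16, adjusted p = 0.0466). The medians of the list were 0.014 in WT and 0.017 in KO mice.

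Among 10 adaptors that bind the App tail, 9 were tested, since Apbb3 was not analysed here. In WT mice, where 4.41% of all genes were called, 0 were called (median -0.034). In KO mice, where 20.8% of all genes were called and 8.31% called lower, 2 were called lower (median -0.016). They were Apba2, a neuronal adaptor also known as X11-like (-0.20, adjusted p = 0.000754), and Apbb1, which encodes Fe65 (-0.17, adjusted p = 0.0352).

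Of 11 enzymes that degrade amyloid beta, Plau was the only call in WT mice, and 2 were called in KO mice, against 4.41% and 20.8% of all genes. Plau, the urokinase-type plasminogen activator, rose from 2.75 to 11.2 CPM in WT (2.02, adjusted p = 1.60e-07) and from 2.29 to 13.3 CPM in KO mice (2.54, adjusted p = 2.07e-09). In KO mice Ace, the angiotensin-converting enzyme, was also called (1.70, adjusted p = 0.0448), with overlapping groups. Ace moved with the choroid plexus markers: with these as a covariate its log2 fold change was -0.021 (adjusted p = 0.976). The medians over the list were 0.083 in WT and 0.051 in KO mice.

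The calls on these genes were not equally firm. Leaving out any 1 of the 20 mice changed no call for Adam17 and Plau in either genotype, nor in KO mice for Ncstn, Psenen, Tmed10, Itm2b, Gsap, Ifitm3, Tspan14, Timp1, Timp2 and Apba2. Timp1 depended in size on KO Tg-SwDI replicate 3, without which it was 0.66 (adjusted p = 0.0444). In KO mice the call on Sorl1 was lost without any of 16 mice (adjusted p up to 0.140), that on Aph1c without any of 10 (up to 0.144, without KO Tg-SwDI replicate 8), and that on Aph1b without any of 9 (up to 0.116, without KO Tg-SwDI replicate 1). The corresponding numbers were 10 mice for Cbl (up to 0.134), 14 for Ace (up to 0.0910) and 6 for Apbb1 (up to 0.0885). Furin was lost without KO Non-Tg replicate 4 or 7 (up to 0.0779), and Mfrp without KO Non-Tg replicate 4 or 8 (up to 0.0506). In WT mice Picalm was lost without any of 6 mice (up to 0.0663), and Gsap without WT Non-Tg replicate 6 or 7 or WT Tg-SwDI replicate 3 (up to 0.0868). Between KO and WT Tg-SwDI mice, Psenen was lost without any of 10 mice (up to 0.101) and Tspan14 without any of 7 (up to 0.0821). Both were also lost with the 10 Tg-SwDI mice alone (adjusted p = 0.123 and 0.0939), with library size alone (0.0920 and 0.0950), with the replicate block (0.164 and 0.244) and with the trend on GC content and length removed (0.151 and 0.112).

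Other settings ended a few of the calls that no single mouse decided. With the choroid plexus markers as a covariate, Psenen in KO mice was 0.23 (adjusted p = 0.0526), Timp1 1.005 (0.0800) and Timp2 0.16 (0.184), whereas Ncstn was 0.26 and stayed called (0.00461). With the trend on GC content and length removed, Psenen was 0.11 (0.167), Itm2b 0.088 (0.124) and Timp2 0.11 (0.174). Timp1 and Timp2 were also lost with the replicate block (adjusted p = 0.0567 and 0.0674), and Timp2 with the 10 KO mice alone (0.0591). The less firm calls in KO mice were lost with the covariate too. Aph1c was then 0.069 (adjusted p = 0.751), Aph1b -0.13 (0.310), Sorl1 -0.095 (0.446), Apbb1 -0.12 (0.314), Cbl -0.12 (0.293) and Furin 0.15 (0.156). Counting the covariate, the call was lost under 5 of 11 settings other than leaving out a mouse for Furin, 5 for Cbl, 5 for Sorl1, 5 for Aph1c, 4 for Aph1b and 3 for Apbb1. In WT mice Picalm was lost under 4 of 11, namely no filter (0.115), library size alone (0.0808), the replicate block (0.0986) and the trend removed (0.241).

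Glial and choroid plexus markers moved alongside these calls. The shares of all genes called were 4.41% with the transgene in WT, 20.8% in KO and 1.99% between KO and WT Tg-SwDI mice. All 6 microglial markers rose with the transgene in both genotypes, with medians of 0.82 in WT and 1.33 in KO mice. Of 5 astrocyte markers 4 rose in WT and 3 in KO mice, and of 5 oligodendrocyte markers 0 and 3. No endothelial marker of 4 was called in either. Between KO and WT Tg-SwDI mice, where Thy1, Psenen and Tspan14 were called, 1 of 6 microglial markers was called, Itgam (0.54, adjusted p = 0.00593; list median 0.29), and 1 of 5 astrocyte markers, Gfap (0.51, adjusted p = 0.0412; list median 0.10). Of the 6 choroid plexus markers 5 rose in KO mice (median 2.91) and 0 in WT. The part of these markers in the calls on Thy1, Ncstn, Bace1 and the pathway lists was not tested, apart from the covariate values given. In bulk tissue, fewer cells of a type and less RNA per cell cannot be told apart.

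Within the groups, the relation between App and Thy1 over all 10 Non-Tg mice and over all 10 Tg-SwDI mice did not pass the threshold by Pearson's r after adjustment. After subtraction of the group means on the log2 CPM scale, Pearson's r over the 10 Non-Tg mice was 0.69 (permutation p = 0.0272, 0.0544 after adjustment over 2 relations), and Spearman's rho was 0.70 (permutation p = 0.0306). Without the 2 mice farthest from the median r was 0.57 (permutation p = 0.135, n = 8), and with library size alone it was 0.54 (permutation p = 0.103, adjusted p = 0.207). Over the 10 Tg-SwDI mice r was -0.30 (permutation p = 0.382, adjusted p = 0.382) and rho was -0.079 (permutation p = 0.840). Without the 2 farthest mice r was 0.36 (permutation p = 0.402, n = 8). The negative sign came with KO Tg-SwDI replicate 8, and without it r over the other 9 mice was 0.73 (permutation p = 0.0239, adjusted p = 0.0272).

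**Figure D4:**
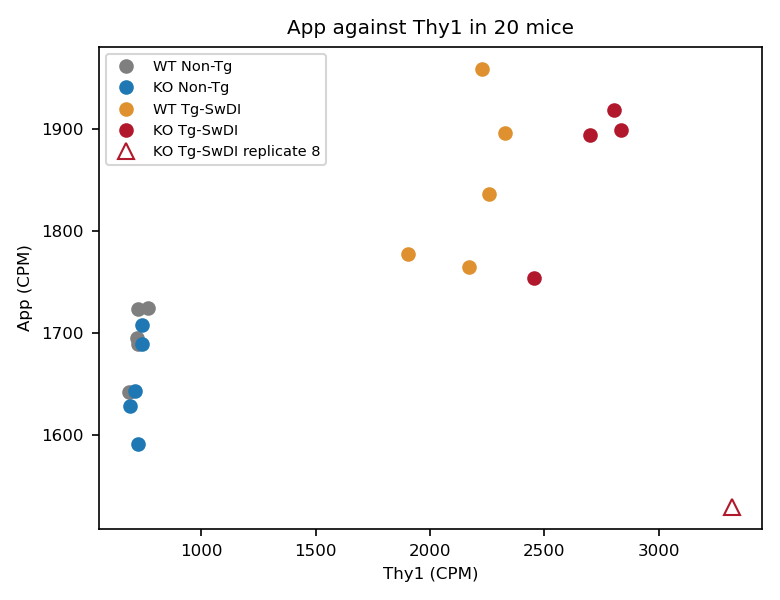
App (vertical axis, CPM; the axis does not start at 0) against Thy1 (horizontal axis, CPM) in each of the 20 mice by group, with KO Tg-SwDI replicate 8 as an open triangle. The mice formed a Non-Tg cluster with at most 769 CPM of Thy1 and a Tg-SwDI cluster with at least 1905 CPM, and replicate 8 lay apart from both with the highest Thy1, 3318 CPM, and the lowest App, 1529.9 CPM.

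The genes whose values followed App most closely around the group means, over 20 mice and 14409 genes with a mean of at least 1 CPM, were Ncald (r = 0.93), Rbsn (0.92) and Tnpo2 (0.91). For Thy1 they were Abi1 (0.90), Ywhah (0.89) and Fkbp1a (0.87). Replicate 8 carried part of this likeness. Without it the values for App were 0.83, 0.76 and 0.75, and those for Thy1 0.84, 0.84 and 0.77. The genes at the top were then others, with Ap2a1, Sorl1 and Ubqln2 for App and Svop, Zbtb18 and E2f3 for Thy1. These correlations are descriptions only, over libraries that differed in choroid plexus RNA and in mitochondrial share.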

How the data were processed

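Whole-number read counts per gene were deposited by the authors, who per the labels selected RNA on oligo(dT) beads for a stranded DNBSEQ library and per the methods aligned it with STAR (mm10) and assigned reads to ENSEMBL genes by FeatureCounts. Versions, strand setting and the handling of multimapping reads are not given in the sources used here. No column was left unused. Gene names and lengths were taken from GENCODE M21 for 38872 of 39056 IDs (99.5%).

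From these counts, edgeR 4.0.16 (R 4.3.3, limma 3.58.1) with TMM factors, filterByExpr (minimum count 10, minimum total 15) and robust quasi-likelihood fits of 4 group means over 20 mice gave 7 contrasts, with Benjamini-Hochberg adjustment over 16107 genes. Intervals are 95%. The contrasts share mice. Each library came from 1 mouse, and the edgeR tests set differences between groups against the spread between mice. Correlations used 100000 permutations (scipy 1.17.1, Python 3.11.15). The fit was tested on simulated counts with changes in the WT Tg-SwDI group. Of 100 genes changed by a log2 of 1, 87% were called, and of 100 changed by 0.5, 68%. In that test 12 unchanged genes were called. Changes under 0.5, such as those of App, Bace1 and Ncstn, were not simulated.

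All 8 genes were named in every comparison, as was each gene of the pathway lists called in a pairwise comparison or the interaction, with the 3 genes most correlated with App and with Thy1 (log2 CPM minus group means); 68 of 69 list genes were found. The genes and lists were chosen with earlier results of these data known. Alternatives were DESeq2 1.42.0, edgeR's exactTest, no filter, a mean of at least 1 CPM, RLE factors, library size alone, the 10 mice compared, a replicate block, a choroid plexus covariate, removal of a GC content and length trend, leaving out each mouse and, chosen after seeing the data, leaving out mitochondrial genes. With total counts of 19549622 to 21066868 per library, counts per mouse ranged from 225 (Psen2) to 60265 (Thy1) over the 8 genes. Values of some single list genes are not reported here.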

Additional observations from a re-analysis of the deposited data

Results flagged for a closer look

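Within groups of 5 mice, the 8 genes and the mitochondrial share of counts were searched for a mouse far from the others (a gap over 0.71 of the group's range). Chance alone marks about 1 in 20 groups, and 4 of 36 were marked. Aplp1 was 1787 CPM in KO Tg-SwDI replicate 8, against 1259 to 1406 CPM in the other mice of that group (gap over range 0.721). The mitochondrial share of the same mouse was 14.6%, against 8.11% to 8.76% (0.898). In WT Tg-SwDI replicate 3 Aplp1 was 1157 CPM, against 1247 to 1269.9 CPM (0.80). In KO Non-Tg replicate 4 Psen2 was 16.8 CPM, against 14.5 to 15.2 CPM (0.713).

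For Psenen, the smallest gamma-secretase subunit, edgeR's test of the interaction was called (log2 difference 0.39, SE 0.092, adjusted p = 0.0455), as for 0.608% of all genes. Only 10 of 29 alternative settings kept that call, so a difference in the transgene's effect between KO and WT mice was not firmly shown.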

How the results depend on the processing

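Thy1 was called with the transgene in WT and in KO mice under every setting run, and Ncstn in KO mice likewise; no member was called between KO and WT Non-Tg mice. Thy1 was the 1 member called between KO and WT Tg-SwDI mice, and that count was 0 with the 10 mice compared alone and with the replicate block. For the interaction the count of members called was 0, and 1 (Thy1) with DESeq2, no filter, a mean of at least 1 CPM, library size alone and mitochondrial genes left out (0 to 1 without each mouse); with the replicate block it stayed 0. For KO averaged over Non-Tg and Tg-SwDI it was 0, and 1 (Thy1) with DESeq2. The r of App and Thy1 ran from -0.50 to 0.73 in Tg-SwDI and from 0.56 to 0.91 in Non-Tg mice without each mouse (0.73 without KO Tg-SwDI replicate 8, 0.91 without KO Non-Tg replicate 7). The cause of these changes was not tested. By design, the 10 mice alone leave fewer mice to estimate the spread. The replicate block fits further terms, for numbers that did not pair the mice, and so leaves fewer residual degrees of freedom. Bace1 in KO mice was lost with no filter (adjusted p = 0.0773); App averaged over genotypes was lost with library size alone (adjusted p = 0.0857). With the trend removed, the interaction of Thy1 had an adjusted p of 0.294.

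Replicate numbers did not pair the mice: of 16 pairs with the same number, 2 had a correlation of deviations over 0.1 (range -0.40 to 0.15), and 1 of 20 mice correlated best with a mouse of its own number. With the replicate block Thy1 in KO against WT Tg-SwDI mice was 0.39 (adjusted p = 0.0781) and averaged App was 0.11 (adjusted p = 0.126).

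Besides the correlation in Tg-SwDI mice, signs changed in 93 of the log2 fold changes recomputed, 92 of 1688 for the members and 1 for Ace. No fold change that changed sign was called under the alternative, and apart from Ace none had been called. With DESeq2 the values were App 0.0027 (interaction) and Psen2 -0.0037 (transgene in WT). With RLE factors the values were App 0.0027 (interaction) and Psen2 -0.0034 (transgene in WT). With no filter the values were App 0.0071 (interaction) and Psen2 -0.0018 (transgene in WT). With a mean of at least 1 CPM the value was App 0.0064 (interaction). With the 10 mice compared alone the value was Psen2 -0.00044 (transgene in WT). With library size alone the values were Adam10 -0.012 (transgene in KO), -0.026 (averaged KO), Aplp2 -0.030 (KO in Tg-SwDI) and Psen2 -0.011 (transgene in KO), -0.040 (KO in Tg-SwDI), -0.013 (interaction), -0.0045 (averaged transgene). With the replicate block the values were Adam10 0.016 (KO in Tg-SwDI), Aplp2 -0.0046 (KO in Tg-SwDI), App 0.00079 (KO in Tg-SwDI), 0.018 (KO in Non-Tg), 0.0096 (averaged KO) and Psen2 -0.015 (transgene in WT), 0.044 (KO in Non-Tg), -0.0062 (averaged transgene), 0.053 (averaged KO). With the choroid plexus covariate the values were Ace -0.021 (transgene in KO), Adam10 -0.0035 (averaged KO), App 0.029 (interaction), Bace1 0.0092 (transgene in WT) and Psen2 -0.0070 (transgene in WT), -0.0050 (transgene in KO), 0.0024 (KO in Non-Tg), -0.0060 (averaged transgene), 0.0034 (averaged KO). With the trend on GC content and length removed the values were Adam10 0.017 (KO in Tg-SwDI), 0.0064 (interaction), Aplp1 -0.034 (averaged transgene), Aplp2 -0.022 (averaged transgene), App 0.011 (KO in Tg-SwDI), 0.087 (interaction), Psen2 -0.014 (transgene in WT), -0.091 (transgene in KO), -0.054 (KO in Tg-SwDI), 0.024 (KO in Non-Tg), -0.077 (interaction), -0.053 (averaged transgene) and Thy1 0.048 (KO in Non-Tg). Without each mouse the values that changed sign ran as follows: Adam10 -0.015 to 0.011 (averaged KO), Aplp1 -0.024 to 0.046 (averaged transgene), Aplp2 -0.019 to 0.042 (KO in Tg-SwDI), App -0.058 to 0.016 (KO in Tg-SwDI), -0.021 to 0.057 (interaction), Bace1 -0.033 to 0.017 (transgene in WT), Psen2 -0.027 to 0.025 (averaged KO), -0.056 to 0.00011 (KO in Non-Tg), -0.031 to 0.071 (KO in Tg-SwDI), -0.0023 to 0.046 (averaged transgene), -0.0062 to 0.091 (transgene in KO), -0.025 to 0.024 (transgene in WT), -0.012 to 0.091 (interaction) and Thy1 -0.025 to 0.018 (KO in Non-Tg).

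Counts over all genes moved by more than 1.5 times as follows. KO against WT Tg-SwDI gave 320 calls, and 733 with DESeq2, 565 with exactTest, 58 with 10 mice alone, 8 with the block, 571 with the covariate, 159 with the trend removed and 78 to 701 without each mouse. The interaction gave 98, and 482 (DESeq2), 59 (library size alone), 38 (block), 18 (covariate), 34 (trend removed) and 14 to 500 (without each mouse). The transgene in KO gave 3351, and 1234 with the covariate. The averaged transgene gave 2766, and 1393 with the covariate and 4561 with the trend removed. Averaged KO gave 13, and 57 with DESeq2, 24 with no filter, 0 with the block and 4 to 25 without each mouse. KO against WT Non-Tg gave 0 to 3 without each mouse. In KO mice the transgene's calls were 2013 higher and 1338 lower, against 1551 and 2678 with the trend removed, which took the median of all genes to -0.069, 1675 and 1792 with library size alone, and 1072 and 162 with the covariate. Between KO and WT Tg-SwDI mice they were 239 and 81, against 102 and 115 with library size alone.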
